A study of Mus musculus with 4 samples.

Results

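Small nucleolar RNAs (snoRNAs) made up 49 of the 2659 Argonaute clusters recovered from the cytoplasm of ESCs (mouse embryonic stem cells) and 43 of the 889 clusters recovered from the cytoplasm of C2C12 myotubes. The clusters were taken by their annotation alone: every cluster that the deposited tables assign to the snoRNA class was kept, whatever its reads. They carried 45 gene names in ESCs and 41 in myotubes, and 60 names in either table. The data are PAR-CLIP, in which RNA labelled with a photoreactive nucleoside is joined by ultraviolet light to the protein that holds it, and the joined base appears in the reads as a T-to-C conversion. A cluster is a stretch of RNA covered by crosslinked reads. The ESCs carried a transgene for HA- and Flag-tagged AGO2, induced with doxycycline at 2.5 ug/ml for 15 h, and the tagged protein was captured with a FLAG antibody. The myotubes, formed by the C2C12 myoblast line over 2 days, have no transgene in the labels. Their own Argonaute proteins were captured with a peptide that binds the family. Both were irradiated at 312 nm for 5 min and treated with RNase T1, an enzyme that cleaves RNA after G. There was 1 library per cell type, so no difference below has a replicate check or a test. Cell type, source of Argonaute and capture changed together and cannot be told apart.

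snoRNAs are short nuclear RNAs that guide the chemical modification of other RNAs, above all of ribosomal RNA. Box C/D snoRNAs carry a box C near the 5' end and a box D near the 3' end and guide 2'-O-methylation by fibrillarin with Nop56, Nop58 and Snu13, whereas box H/ACA snoRNAs guide pseudouridylation by dyskerin with Nhp2, Nop10 and Gar1. Most are cut out of the introns of host genes, many of which encode ribosomal proteins or long noncoding RNAs, and pieces of snoRNAs have been found on Argonaute in many cell types. The symbol tells the class of a Snord gene (box C/D) and of a Snora gene (box H/ACA), while a Scarna gene is an RNA of the Cajal body, where spliceosomal RNAs are modified.

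By reads, the fragments on Argonaute came mostly from clusters that hold TGATGA, the core of box C. Most of these clusters ended shortly after the box. The exception with the most reads was Snord13 in ESCs, whose cluster of 71 nt ran well past it. That cluster held 23% of snoRNA reads in ESCs, so not all reads counted with TGATGA need lie around it. The following sequences are a selection of the clusters with TGATGA, shown because their genes are among those with many reads or with the largest differences between the libraries. They are given 5' to 3' from the deposited tables, on mm10, and capitals mark TGATGA, the core of box C. For Snord13 and Gm24489 both libraries are shown since their 3' ends differed, and for Gm22680, Gm25789 and Gm22193 both libraries gave the same sequence.
Snord13 in ESCs, chr8:31149886-31149956, minus strand: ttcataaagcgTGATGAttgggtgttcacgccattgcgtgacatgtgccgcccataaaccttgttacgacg
Snord13 in myotubes, chr8:31149927-31149956, minus strand: ttcataaagcgTGATGAttgggtgttcacg
Gm24489 in ESCs, chr1:161037604-161037623, plus strand: ataccaTGATGAtaacatag
Gm24489 in myotubes, chr1:161037604-161037628, plus strand: ataccaTGATGAtaacatagttcag
Gm22680 in both, chr19:8725340-8725360, plus strand: tatataTGATGActttcatag
Gm25789 in both, chr1:161038311-161038336, plus strand: aatacaTGATGAtctcacacaacttg
Gm22193 in both, chr8:110842431-110842455, minus strand: cctgaagTGATGAttcacaatcatg
Snord65 in myotubes, chr11:62604512-62604538, plus strand: atcaaaTGATGAtatcacctaaaatag
Gm22744 in ESCs only, chr19:8725092-8725113, plus strand: tttctaTGATGAatcaaactag
Gm22357 in myotubes only, chr1:161036059-161036081, plus strand: ccacaaTGATGAcatcatatttg
Rnu3a in ESCs, chr10:40258611-40258645, plus strand: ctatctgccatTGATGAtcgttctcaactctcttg

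A smaller set of fragments came from the 3' end. They are shown because they are the box D counterpart of the fragments above. Capitals mark CTGA, the box D sequence, which lies just before the end of the RNA.
Snord47 in myotubes, chr1:161038138-161038160, plus strand: ttccattttatttCTGAggttac
Gm22489 in myotubes, chr1:161035892-161035913, plus strand: aaaaacacttttCTGAggcttt
Snord73a in ESCs, chr3:86138793-86138813, minus strand: taacattacatttttCTGAtg
Gm26287 in ESCs, chr1:59704315-59704336, plus strand: tcactacctcatCTGAtgccat
Snord118 in both, chr11:69073535-69073567, plus strand: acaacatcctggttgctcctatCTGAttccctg

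A pair of H/ACA members is shown for contrast, with ACA in capitals where it occurs; both lie at the 3' end of the gene.
Snora34 in myotubes, chr15:98519716-98519740, minus strand: actatttcatttggaagaaACAacc
Snora44 in ESCs, chr4:132310049-132310070, plus strand: ccactcatctttcctatatatg

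snoRNA clusters held 6105 of 214955 cluster reads in ESCs (2.84%, 95% interval 2.77 to 2.91) and 3164 of 135023 in myotubes (2.34%, 2.26 to 2.43). Intervals of shares here and below are exact Clopper-Pearson intervals, cover counting error at most and treat reads or clusters as independent. Reads amplified by PCR and lacking molecular identifiers are not independent molecules, so intervals on reads may be too narrow. As a share of clusters, snoRNAs were 1.84% in ESCs (1.37 to 2.43) and 4.84% in myotubes (3.52 to 6.46). The order of the read shares depended on what was counted. Of the cluster reads, 155547 in ESCs and 67096 in myotubes lay outside the mitochondrial chromosome. Of these the snoRNA share was 3.92% in ESCs and 4.72% in myotubes. With Snord13 left out, snoRNAs held 2.19% of all cluster reads in ESCs and 2.29% in myotubes. RNA levels were not measured in these tables, so more binding and more RNA cannot be told apart, nor can fewer cells and less RNA per cell. Of 10 ESC marker genes, 7 had clusters in ESCs (596 reads) and 0 in myotubes. Of 10 myotube markers, 3 had clusters in ESCs (23 reads) and 7 in myotubes (347 reads). None of 5 fibroblast and 5 blood markers had a cluster in either library.

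By name, box C/D RNAs outnumbered box H/ACA RNAs in both libraries. Snord genes gave 16 clusters with 2515 reads in ESCs (41.2% of snoRNA reads) and 16 clusters with 1185 reads in myotubes (37.5%). Snora genes gave 3 clusters with 120 reads in ESCs (1.97%) and 2 clusters with 17 reads in myotubes (0.537%). In ESCs these were Snora61 with 61 reads, Snora44 with 54 and Snora69 with 5. In myotubes they were Snora44 with 12 reads and Snora34 with 5. Snora44 was the H/ACA member present in both libraries. Scarna10 held 14 ESC reads and 5 myotube reads, at different positions in the gene. The remaining 29 ESC clusters (3456 reads) and 24 myotube clusters (1957 reads) had names that do not tell the class: Rnu3a, Mir5117 and Gm symbols. Rnu3a is a U3 RNA, which is needed for the cleavage of pre-ribosomal RNA. Of the Gm symbols, Gm25206 lies at RefSeq's Snord59a and Gm22486 at RefSeq's Snord94. Gm24148 is listed as a miRNA gene in RefSeq, and Mir5117 has a miRNA name but overlapped no miRNA hairpin of the RefSeq table used here.

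The sequences told more than the names. TGATGA was present in 21 of 49 snoRNA clusters in ESCs (42.9%, 28.8 to 57.8) and in 20 of 43 in myotubes (46.5%, 31.2 to 62.3). Among all other clusters it was present in 7 of 2610 in ESCs and in 1 of 846 in myotubes. Clusters with TGATGA held 79.0% of snoRNA reads in ESCs and 69.9% in myotubes. Most of them had names that do not tell the class, 14 of the 21 in ESCs and 14 of the 20 in myotubes. CTGA occurred in 12 of 49 snoRNA clusters in ESCs and 9 of 43 in myotubes, against 2.26% of other ESC clusters and 3.66% of other myotube clusters. Not every leading cluster held TGATGA: Snord58b, with 329 reads in ESCs and 324 in myotubes, had neither motif. It does hold a match to TGATGA in all but the last base. Both motifs occurred together in 1 cluster of each library, Gm22193. With any base in the last position (TGATGN), the count was 24 in ESCs and 27 in myotubes, against 15 of 2610 and 7 of 846 other clusters. It is not a count of box C alone, because TGATGN also matches CTGA followed by TG. Such matches are the 3' cluster of Gm26287 in ESCs and the Snord73a cluster in myotubes. The H/ACA motifs are short and did not stand apart as clearly. ACA was in 40.8% of snoRNA clusters in ESCs and 41.9% in myotubes, and in 40.8% and 39.0% of the other clusters. ANANNA, the box H consensus, was in 53.1% of snoRNA clusters in ESCs and 41.9% in myotubes, and in 31.1% and 37.2% of the other clusters. Motifs were searched on the strand of the cluster, and a match describes the letters and not a functional box.

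The box lay at nearly the same distance from the 5' end of each fragment. TGATGA began at base 6, 7 or 8 of the cluster in 19 of the 21 that held it in ESCs and 18 of the 20 in myotubes, with a median of base 7 in both. The exceptions were Snord13 and Rnu3a. The mode position, which the tables give for each cluster, lay 3' of the 6 bases in 18 of 21 such clusters in ESCs and in 16 of 20 in myotubes. At the other end, the last base was G in 43 of 49 snoRNA clusters in ESCs (87.8%, 75.2 to 95.4) and in 35 of 43 in myotubes (81.4%, 66.6 to 91.6). Over all clusters it was G in 73.9% in ESCs and 71.3% in myotubes.

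Laid along the annotated gene, the clusters fell mostly towards its ends. RefSeq gene positions on GRCm38.p6, the assembly behind mm10, placed 46 of the 49 in ESCs and 42 of the 43 in myotubes. Those genes had a median length of 76 nt in ESCs and 73 nt in myotubes. With each gene divided into 3 equal parts by the midpoint of the cluster, the 5' part held 25 ESC clusters and 29 myotube clusters, the middle part 7 and 3, and the 3' part 14 and 10. TGATGA was present in 18 of the 25 and 19 of the 29 clusters of the 5' part. CTGA was present in 9 of the 14 and 6 of the 10 clusters of the 3' part. Of the placed reads, the 5' part held 62.4% in ESCs and 85.8% in myotubes. Snord13 counts in different parts: its ESC cluster of 71 nt, with 1405 reads, has its midpoint in the middle part, and its myotube cluster of 30 nt, with 66 reads, in the 5' part. Both begin 2 nt into the gene.

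**Figure D1:**
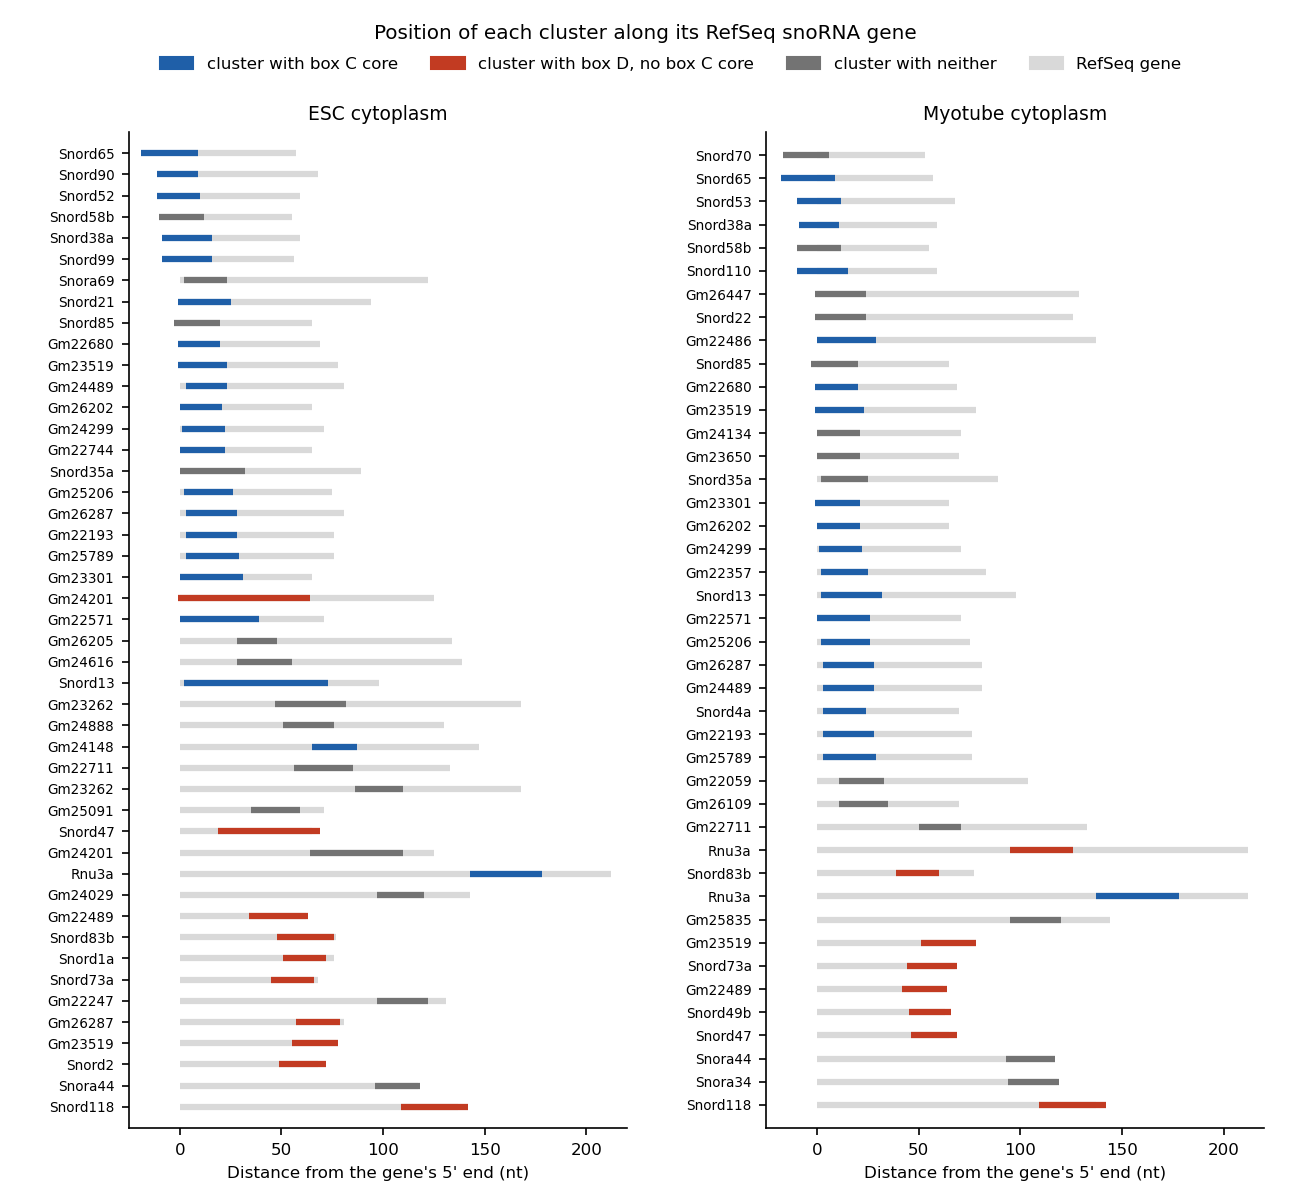
Position of each placed snoRNA cluster along its annotated gene, ESC on the left (46 clusters) and myotube on the right (42 clusters); the x axis is the distance in nt from the gene's 5' end, pale bars are the genes and coloured bars the clusters. Clusters with TGATGA sit at the 5' end, with Rnu3a and Gm24148 as exceptions in ESCs and Rnu3a in myotubes, and most clusters with CTGA alone sit at the 3' end.

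Several RefSeq genes were annotated as starting inside the cluster. In 6 ESC and 6 myotube clusters the 5' end lay more than 5 nt before the annotated start, by up to 19 nt for Snord65 in ESCs and 18 nt in myotubes. For 4 names in ESCs and 2 in myotubes a gene held 2 clusters. Gm23519, in Rab26os, was recovered from both ends in both libraries: its 5' cluster held 98 ESC reads and 68 myotube reads, and its 3' cluster held 25 ESC reads and 26 myotube reads. Gm26287, in Nop58, had a 5' cluster with 21 reads in ESCs and 19 in myotubes, and a 3' cluster with 67 reads that was called in ESCs alone. Rnu3a had its main cluster in the last part of the RNA, with 139 reads in ESCs and 81 in myotubes, and a second cluster with 6 reads in myotubes. Gm23262, in Eif4g2, had 56 and 27 reads in its clusters in ESCs, and Gm24201, in Eif4a2, had 49 and 17. Neither of these had a cluster in myotubes.

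Many of the same fragments were recovered in both libraries. By overlap of at least 1 nt on the same strand, 26 of 49 ESC snoRNA clusters (53.1%) and 26 of 43 myotube snoRNA clusters (60.5%) had a partner, against 11.6% of all ESC clusters and 34.4% of all myotube clusters. snoRNA clusters had more reads than the median cluster of either table. With at least 10 reads in both libraries, 25 of 43 ESC and 25 of 37 myotube snoRNA clusters were shared, against 18.1% of all ESC clusters and 43.6% of all myotube clusters at that depth. The shared clusters held 89.3% of snoRNA reads in ESCs and 82.1% in myotubes. The 5' end was the same base in 15 of 26 pairs, the 3' end in 15 and both ends in 11. Where the lengths differed, the ESC cluster was the longer in 10 pairs and the myotube cluster in 5. The largest differences were at Snord13, with 71 nt in ESCs and 30 nt in myotubes, and at Snord47, with 50 nt in ESCs and 23 nt in myotubes. Across the 26 pairs, reads in ESCs and myotubes had a Spearman rho of 0.66 and converted shares one of 0.74, as a description over clusters that share their libraries.

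Of 26 snoRNA genes with reads in both tables, 3 had a read share at least 4-fold higher in ESCs and 0 at least 4-fold lower. Over all 237 genes common to the tables, 13.1% were past that fold upwards, 8.86% downwards and 21.9% in either direction, so the count of 3 is near the background. The median log2 ratio of read shares, ESC over myotube, was close to 0 over the snoRNA genes (range -1.60 to 3.74) and -0.04 over all common genes. The share was within a factor of 2 for 14 of 26 snoRNA genes (53.8%) and for 110 of all 237 (46.4%). The exact conditional binomial 95% interval of the ratio covers counting error at most. It lay above 0 for 7 snoRNA genes, below 0 for 8 and included 0 for 11. No background share over all common genes is given for these counts.

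Snord13, a box C/D-like RNA that guides acetylation of 18S ribosomal RNA in human cells, had the most snoRNA reads in ESCs. It had 1405 reads in ESCs, 0.654% of the library and 23% of all snoRNA reads, and 66 reads in myotubes, 0.0489% of the library. The log2 ratio was 3.74 (3.38 to 4.12). The converted share was 93.7% of reads in ESCs (92.3 to 94.9) and 90.9% in myotubes (81.3 to 96.6). These intervals overlapped. The ESC reads had 45 distinct sequences and 13 conversion positions, and the myotube reads 9 distinct sequences and 3 conversion positions.

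Gm24489 and Gm22680 were the other genes past the fold. Gm24489, in Gas5, held 902 ESC reads and 84 myotube reads, a log2 ratio of 2.75 (2.43 to 3.09). Gm22680, in Snhg1, held 240 ESC reads and 14 myotube reads, a log2 ratio of 3.43 (2.65 to 4.32). The reads of Gm24489 came from few sequences. It had 11 distinct sequences in ESCs and 8 in myotubes, or 82.0 reads per distinct sequence in ESCs and 10.5 in myotubes, where all snoRNA clusters together had 7.16 in ESCs and 6.33 in myotubes. Counted by distinct sequences, none of the 26 genes was past 4-fold. The log2 ratio was then 1.71 for Snord13, 1.59 for Gm22680 and -0.15 for Gm24489, which changed sign. No background share over all common genes is given by distinct sequences.

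**Figure D2:**
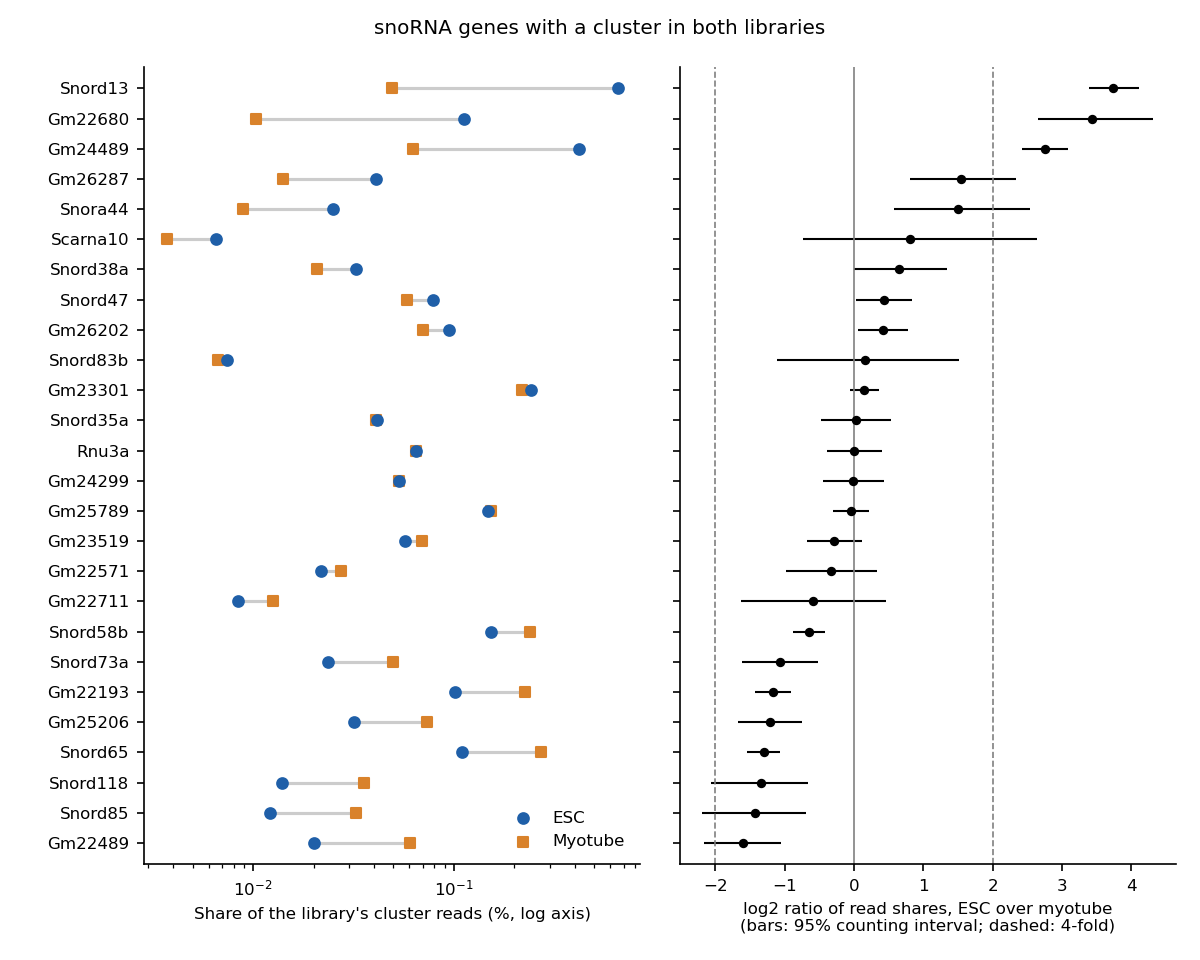
Read share (left, %, log axis; circles ESC, squares myotube) and log2 ratio of shares, ESC over myotube (right, bars are 95% counting intervals, dashed lines 4-fold), for the 26 snoRNA genes with a cluster in both libraries. Snord13, Gm22680 and Gm24489 lie to the right of the upper 4-fold line, and no gene lies to the left of the lower one.

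**Figure D3:**
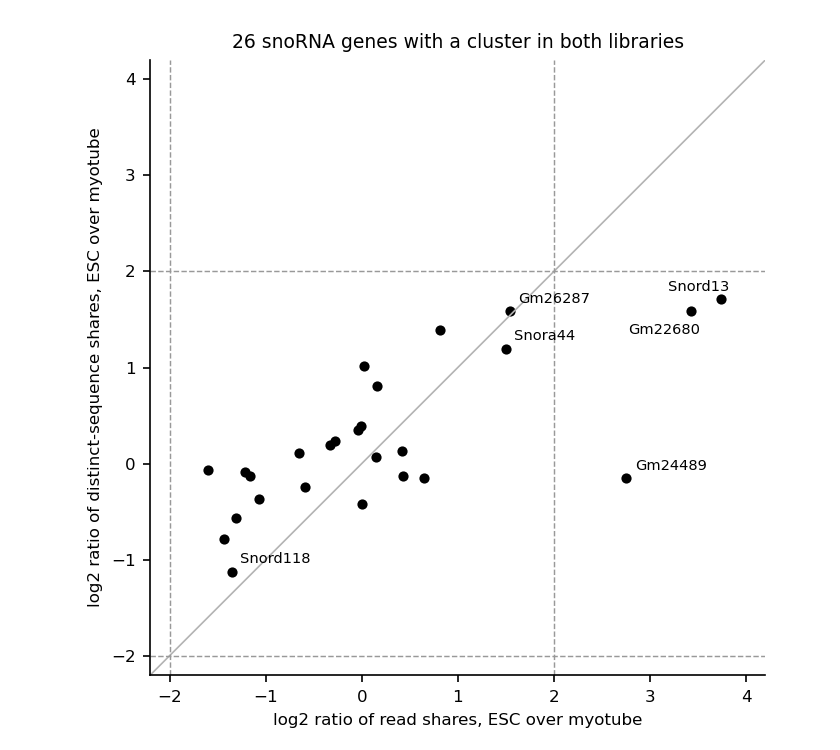
log2 ratio by reads (x) and by distinct sequences (y), ESC over myotube, for the same 26 genes; the grey diagonal marks equal values and the dashed lines 4-fold. By distinct sequences all genes lie inside the 4-fold lines, and Gm24489 falls to -0.15.

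At the other end, the shares lower in ESCs were all within 4-fold. Gm22489, in Gas5, held 43 ESC reads and 82 myotube reads, a log2 ratio of -1.60 (-2.17 to -1.05). Snord118, the U8 RNA that is needed for the maturation of large-subunit ribosomal RNA, held 30 ESC reads and 48 myotube reads (-1.35, -2.06 to -0.66). Snord65 led the myotube snoRNAs with 365 reads, 11.5% of their total, and had 235 reads in ESCs (-1.31, -1.55 to -1.07). Its distinct sequences numbered 68 in ESCs and 66 in myotubes, the most of any snoRNA cluster in both libraries. Gm22193, in the splicing factor gene Sf3b3, held 217 ESC reads and 306 myotube reads (-1.17, -1.42 to -0.91). Gm25206, in Atp5b, held 68 ESC reads and 99 myotube reads (-1.21, -1.68 to -0.75).

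Several other leading genes had intervals that included 0 or came close to it. Gm25789 held 319 ESC reads and 206 myotube reads (-0.04, -0.30 to 0.22). Rnu3a held 139 ESC reads and 87 myotube reads (0.01, -0.39 to 0.41). Snord47, whose clusters reach the 3' end of the gene, held 169 ESC reads and 79 myotube reads (0.43, 0.03 to 0.83). Gm23519 held 123 ESC reads and 94 myotube reads (-0.28, -0.68 to 0.12). Snora44, the H/ACA member of the common genes, stood further off, with an interval above 0, and held 54 ESC reads and 12 myotube reads (1.5, 0.58 to 2.54). Scarna10 gave an interval that included 0 (0.81, -0.74 to 2.64).

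Names found in 1 table alone numbered 19 in ESCs with 575 reads in all (9.42% of snoRNA reads). In myotubes there were 15 with 554 reads (17.5%). No background share over all genes is given for these counts. The median was 20 reads per gene in ESCs and 12 in myotubes. The tables list called clusters only, the smallest with 4 reads in ESCs and 5 in myotubes, so whether a gene without a cluster had any reads is not known. The largest such gene was Gm22357 in Gas5, with 292 reads and 24 distinct sequences in myotubes and no cluster in ESCs, where its myotube share would amount to 465 reads. Gm22744, in Snhg1, was the largest in ESCs, with 124 reads and 21 distinct sequences, and its share would amount to 77.9 reads in myotubes. It was followed in ESCs by Gm23262 with 83 reads, Gm24201 with 66 and Snora61 with 61. In myotubes Gm22357 was followed by Gm24134 in Rpl7a with 50 reads, Gm26109 in Hspa9 with 46 and Snord110 in Nop56 with 37.

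Most snoRNA clusters lay inside a host gene, 45 of 49 in ESCs and 38 of 43 in myotubes. RefSeq positions gave 38 hosts in either table. Where the strand of a host was known, for 28 of them, it had to be that of the cluster, and the other hosts rest on position alone. Those outside any host were Snord13, Rnu3a, Snord118 and Gm22711. Long noncoding hosts held 15 clusters and 38.5% of snoRNA reads in ESCs, and 12 clusters and 39.3% in myotubes. Protein-coding hosts held 30 clusters and 35.5% of reads in ESCs, and 26 clusters and 53.8% in myotubes. Among these, ribosomal protein genes held 13 clusters and 22.6% in ESCs and 10 clusters and 30.8% in myotubes. Nop56 and Nop58, which encode core proteins of the box C/D particle, are hosts themselves. Nop58 held Gm26287 in both libraries and Snord70, with 11 reads, in myotubes. Nop56 held Snord110 and Gm23650, with 37 and 7 reads in myotubes, and no snoRNA cluster in ESCs.

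The long noncoding gene Gas5 (chr1, GRCm38), whose introns hold a row of box C/D snoRNAs, gave 5 clusters in each library. They had 1460 reads in ESCs (23.9% of snoRNA reads, 22.8 to 25) and 743 in myotubes (23.5%, 22 to 25). As shares of snoRNA reads the sums were near each other, while the members differed to unequal extents. Gm24489 held 902 of the ESC reads and 84 of the myotube reads, while Gm22357 held 292 of the myotube reads and had no cluster in ESCs. Gm22489 held 43 ESC reads and 82 myotube reads, Snord47 had 169 and 79, and Gm25789 had 319 and 206. Mir5117 had 27 reads in ESCs and no cluster in myotubes. Of Gas5 itself, 1 exonic cluster with 17 reads was called in ESCs and none in myotubes.

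**Figure D4:**
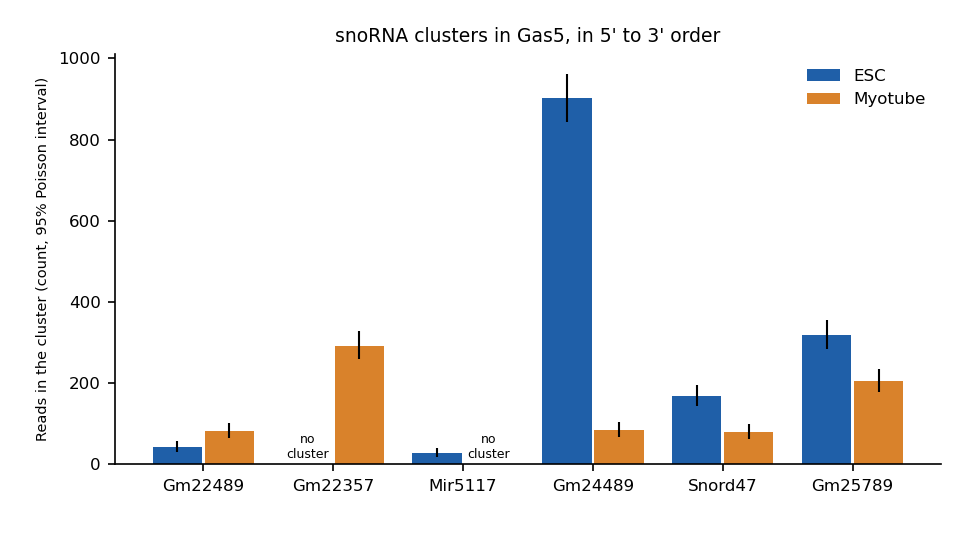
Reads (count) in each snoRNA cluster within Gas5, ESC bar left of myotube bar, in 5' to 3' order along the gene; error bars are exact 95% Poisson intervals. Gm24489 stands highest in ESCs with 902 reads, and Gm22357 stands highest in myotubes with 292 reads and has no ESC cluster.

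The ribosomal protein gene Rpl17 was the second such host. It held Snord58b with 329 reads in ESCs and 324 in myotubes, Gm23301 with 522 and 296, and Gm26202 with 202 and 95. Together these were 1053 reads in ESCs (17.2% of snoRNA reads) and 715 in myotubes (22.6%). Gm23301 and Gm26202 are near copies whose fragments differ at 2 of 21 aligned bases in both libraries. Reads may be split between them, and how reads with several matches were placed is not given in the sources used here.

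Some hosts also had a cluster assigned to the host gene itself, 11 of 30 in ESCs and 2 of 27 in myotubes. No background share over all genes is given for the counts of hosts, and ESCs had 2659 clusters in all against 889 in myotubes. In both libraries the hosts with a cluster of their own include Rpl3, whose intronic cluster lies on RefSeq's Snord43. In ESCs they also include 1110038B12Rik, with an intronic cluster. Eif4g2, which encodes a translation factor, had the most such clusters, with 8 exonic clusters and 136 reads in ESCs. In myotubes it had 1 cluster with 10 reads but no snoRNA cluster, so the 2 hosts counted there were Rpl3 and Hspa9. For messages of the pathway's proteins, counts are given with no background share of genes. Of 4 box C/D proteins, Nop58 had 1 cluster with 5 reads in ESCs, and none had a cluster in myotubes. Of 4 box H/ACA proteins, Nop10 had 1 cluster with 9 reads in ESCs, and none had one in myotubes. Of 15 genes listed for snoRNA assembly and export, 4 had clusters in ESCs (Nufip1 with 9 reads, Ruvbl2 with 9, Xpo1 with 11 and Zfp106 with 23) and 0 in myotubes. Zfp106 is in that list without a known role in assembly. Of 57 known or likely host genes, 10 had clusters assigned to them in ESCs and 3 in myotubes, Rpl3 among both.

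In length, snoRNA clusters had a median of 25 nt in ESCs (quartiles 22 and 29, range 20 to 71) and 24 nt in myotubes (22 and 25, range 20 to 41). miRNA clusters had medians of 21 nt in ESCs and 22 nt in myotubes, and 3'UTR clusters 22 nt and 23 nt. Over all clusters the median was 22 nt in ESCs and 24 nt in myotubes, which in myotubes is the snoRNA median. Mitochondrial rRNA clusters were longer, with medians of 41.5 nt in ESCs and 42 nt in myotubes, as were those of the misc_RNA class, with 43 nt and 34.5 nt. The median snoRNA cluster had 43 reads and 14 distinct sequences in ESCs and 37 reads and 8 distinct sequences in myotubes. Over all clusters the medians were 9 reads and 4 distinct sequences in ESCs and 11 reads and 5 distinct sequences in myotubes.

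Conversion was lower in snoRNA clusters than over the tables and higher than in miRNA clusters. The median share of converted reads was 58.9% in ESCs (quartiles 49.2 and 75) and 67.6% in myotubes (46.5 and 80). It was 80% in ESCs and 83.3% in myotubes over all clusters, 77.8% and 90.0% in 3'UTR clusters, and 40.0% and 50.0% in miRNA clusters. Other noncoding classes lay near or below the snoRNAs, with 58.5% in ESCs and 60.6% in myotubes for mitochondrial rRNA and 51.8% and 47.0% for misc_RNA. Among clusters with at least 10 reads the table-wide medians were lower. At that depth the medians were 55.3% in ESCs and 58.3% in myotubes for snoRNAs, 64.3% and 67.1% over all clusters, 63.6% and 72.7% for 3'UTRs, and 37.5% and 50.0% for miRNAs. Members ranged widely, between 28.6% for Gm23262 and 100% for Snord21 and Snora69 in ESCs, and between 25% for Snord118 and 100% for Snord4a, Snord70, Gm22059 and Scarna10 in myotubes. Within the 26 pairs, the share was higher in ESCs in 14 and lower in 12, with a median difference, ESC minus myotube, of 0.537 percentage points.

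**Figure D5:**
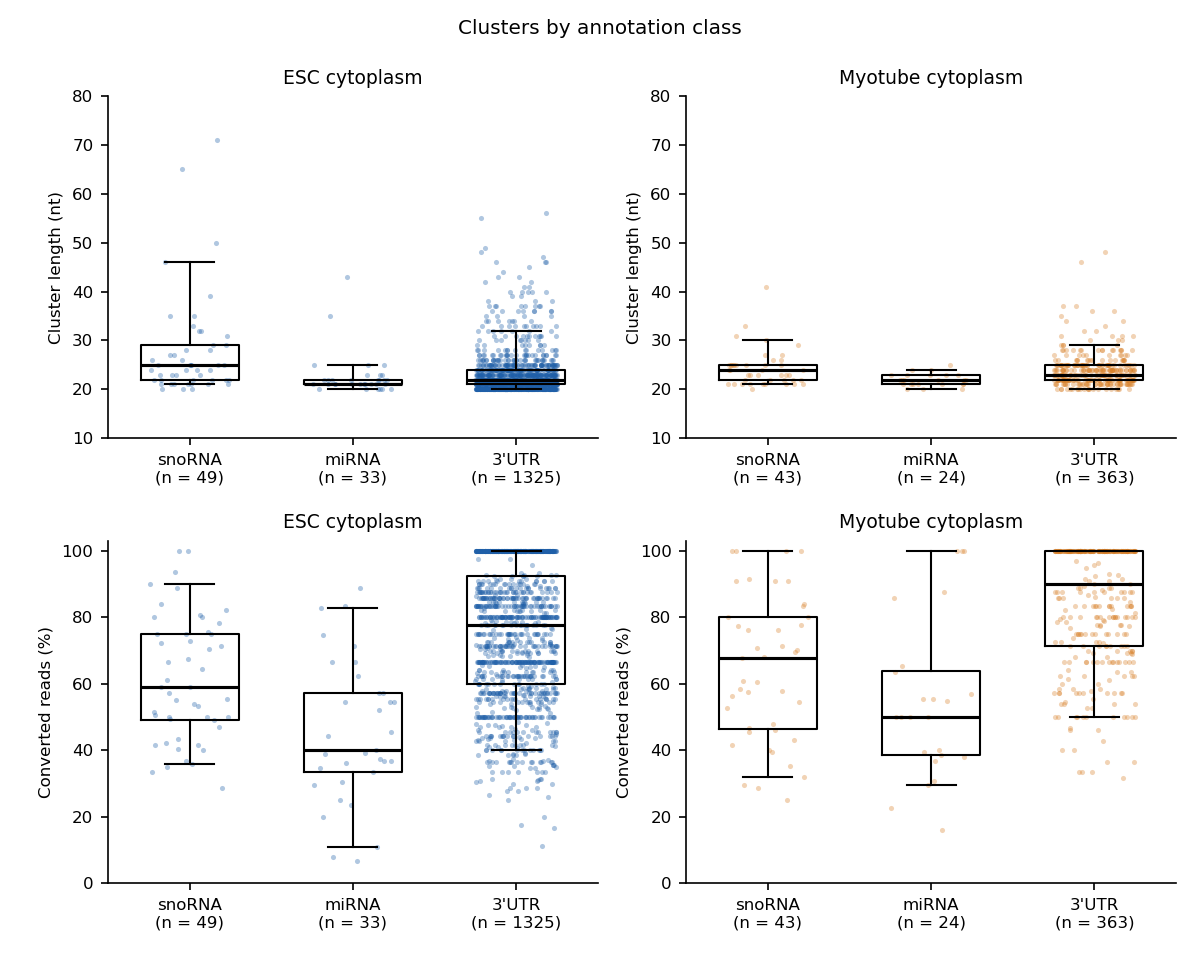
Length in nt (top) and share of converted reads in % (bottom) of snoRNA, miRNA and 3'UTR clusters, ESC left and myotube right; points are clusters, boxes give median and quartiles and whiskers the 5th and 95th percentiles. In both libraries the snoRNA median of conversion (58.9% in ESCs, 67.6% in myotubes) lies between those of miRNA and 3'UTR clusters.

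Matches to miRNA seeds were near the share over all clusters. Bases 2 to 8 from the 5' end, the seed of a miRNA, equalled 1 of the 1398 distinct seeds of RefSeq mouse miRNAs in 3 of the 49 snoRNA clusters of ESCs (6.12%) and 4 of the 43 of myotubes (9.30%). Over all clusters the share was 10.3% in ESCs and 10.2% in myotubes.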

How the data were processed

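Cluster tables of 2 of the 4 samples were analysed, and the nuclear samples were not analysed here. Titles end in "(2)" without explanation, so each sample was taken as 1 library. The columns of reads, distinct sequences and conversions are raw counts that the authors deposited. The authors also deposited a fraction of converted reads and one of reads that end in G. The second was near 0 for minus-strand clusters whose sequence ends in G, so the last base of the cluster sequence was used. Per the submitters' processing notes, bcl2fastq 2.17.1 was used and coordinates are on mm10. Aligner, cluster caller, settings and any pooling: not given in the sources used here. Blank lines (4 in the ESC table, 1 in the myotube table) were dropped, and 0 columns of per-sample values stayed unmapped.

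Gene names matched an Ensembl gene for 57 of 60 snoRNAs. Log2 ratios of read shares have exact conditional binomial 95% intervals. Overlaps were computed with bedtools 2.31.1, intervals with scipy 1.17.1 under python 3.11.15 and pandas 2.3.3, and plots with matplotlib 3.10.9. Overlaps, ratio intervals and the motif search were run on simulated data with known answers. The simulation could hold no false overlap or false motif, so only the recovery of planted ones was checked. Simulated reads were independent counts, unlike reads amplified by PCR. With 1 library per group no test between groups was made. Genes are named if among the 12 with most reads in a table, past 4-fold, with 2 or more clusters, or Snora or Scarna. Any other gene was named with its value known. Members and lists were chosen with earlier results of these data known.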

Additional observations from a re-analysis of the deposited data

How the results depend on the processing

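The numbers of snoRNA clusters, of shared clusters and of clusters with TGATGA, and the median lengths, changed by less than 1.5 times under each alternative tried (at least 10 reads, overlap of at least 50% of each cluster, ATGATGA or GTGATGA, and TGATGN). The snoRNA read share was 3.92% in ESCs and 4.72% in myotubes outside the mitochondrial chromosome, 3.56% in ESCs and 3.19% in myotubes by distinct sequences, and 2.19% in ESCs without Snord13. The converted share became 68.2% in ESCs and 59.3% in myotubes when reads were summed, 60.6% and 58.7% when summed without Snord13, and 55.3% and 58.3% with at least 10 reads. By distinct sequences 0 genes were at least 4-fold higher in ESCs and the median log2 ratio was 0.090, of opposite sign to the median by reads, which is itself near 0. Outside the mitochondrial chromosome 1 gene, Gm22489, was at least 4-fold lower (-2.14), 7 genes had a higher share in ESCs, and the median log2 ratio was -0.54. Per snoRNA read the median was -0.28. By distinct sequences Gm24489 was at -0.15. For the counts of genes under these alternatives, no background share over all common genes is given. Both comparisons without Snord13 and TGATGN were chosen after seeing the data. The cause of these changes was not tested.

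No paired analysis was possible because each group has 1 library, and for the same reason no replicate was left out in turn. Depth limits the low members: the ratio of Scarna10, with 14 ESC reads and 5 myotube reads, has an interval of -0.74 to 2.64.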

Other observations

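Some clusters outside the snoRNA class lie on snoRNA genes or hold box C. An intronic cluster of the ribosomal protein gene Rpl3 lies on RefSeq's Snord43 and would rank among the leading snoRNAs. It had 481 reads in ESCs with 31.4% converted and 247 reads in myotubes with 25.1% converted, and begins at the same base in both. Its sequences are shown because they have the form of the box C clusters, with TGATGA in capitals at base 7.
Rpl3 intron in ESCs, chr15:80082901-80082920, minus strand: cacaaaTGATGAaccttttg
Rpl3 intron in myotubes, chr15:80082898-80082920, minus strand: cacaaaTGATGAaccttttgacg

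An intronic cluster of the long noncoding gene 1110038B12Rik, which also hosts Snord52, had 65 reads in ESCs and holds TGATGA at base 7 as well. A myotube cluster with no annotation (9 reads) lies on a RefSeq snoRNA locus on chromosome 19. These clusters are not among the snoRNA clusters counted in the report. Those with TGATGA are among its counts of other clusters with that motif, and the Rpl3 and 1110038B12Rik clusters are among those assigned to host genes.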
